A study of Mus musculus with 2 samples.

Results

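Interneurons of the caudal ganglionic eminence (CGE) type were chosen by the measured UMIs of 4 of their marker genes in droplet single-cell RNA libraries of the newborn mouse telencephalon. A cell belonged to the set when it held at least 1 UMI of Gad1 and Gad2 together (a UMI, unique molecular identifier, is 1 captured transcript molecule) and at least 3 UMIs of Adarb2, Prox1, Npas1 and Htr3a together. It also had to hold no UMI of Lhx6 or Isl1, at most 1 of Neurod2 and Neurod6, and fewer than 3 of Mki67, Top2a and Cenpf. This left 247 of 12846 cells, 109 of 6766 in the WT library and 138 of 6080 in the STING conditional knockout (cKO) library, counting barcodes with at least 500 detected genes and at most 10% mitochondrial UMIs. Both libraries came from C57BL/6 pups at postnatal day 0. The labels call the tissue telencephalic and the study's methods cerebral cortex. The cKO genotype was STINGf/f;Nestin-Cre, in which Cre is driven by the Nestin promoter, active in neural progenitors and so inherited by the neurons and glia made from them. The control is labelled WT, while the study's text calls the control of this experiment STINGfl/fl. There was 1 library per genotype and the number of pups behind each is not given in the sources used here, so differences between genotypes have no replicate check and no test was made. The 95% intervals below cover counting error only.

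Cortical GABAergic interneurons are born in the ganglionic eminences under the cortex and reach it by tangential migration. The medial eminence (MGE) makes the LHX6-dependent cells that become somatostatin and parvalbumin interneurons. The caudal eminence makes the cells that later carry the 5-HT3A serotonin receptor and become VIP, CCK, reelin or calretinin interneurons of the upper layers, and its lineage is known for the transcription factors PROX1, NR2F2 (COUP-TFII), NR2F1 and SP8. At birth these cells are still migrating or settling and many subtype genes are only beginning to be expressed.

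The members held a median of 6388 UMIs in WT and 5108.5 in cKO, against 6653 and 7629 over all kept cells, and their summed UMIs came to 843734 and 860719. Their median share of mitochondrial UMIs was 5.90% and 6.16%. The targeted gene, Tmem173 (STING), had 132 UMIs in 91 of the kept WT cells and 18 UMIs in 15 of the kept cKO cells, but no UMI in a member of either library, so it checks nothing within the set. Where the deleted exons lie relative to the counted end of the transcript is not given in the sources used here. The shares of cell types also differ between the libraries, and the part of that in the Tmem173 counts was not tested. The WT members held 63 UMIs of the Y-linked Ddx3y and 1 of Xist, while the cKO members held 0 of Ddx3y and 1438 of Xist. All other kept cells held 2947 and 0 UMIs of Ddx3y and 9 and 72417 of Xist in WT and cKO. Genotype and sex therefore cannot be told apart in any comparison of the 2 libraries. Between the libraries 19 barcodes were shared, 8 of them among kept cells and 0 between the 2 sets of members. Scrublet marked 4 WT members as doublets and, among all cKO cells, marked 0 of 6080, so that doublets were not effectively looked for in cKO.

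The genes of the rule describe how cells entered the set and are not a result. Npas1, a transcription factor of the bHLH-PAS family, stood at 380 CPM in WT, where CPM is UMIs of the gene per 1000000 UMIs of the summed members, and 302 in cKO. Prox1, a homeodomain factor needed for CGE cells to mature, stood at 224 and 295 CPM. Adarb2, an RNA-editing-like protein without known editing activity, stood at 177 and 123 CPM, and Htr3a, the serotonin-gated channel, at 117 and 178 CPM. All 4 genes were detected together in 17 WT members (15.6%) and 12 cKO members (8.70%). A single one of the 4 carried the cell over the threshold in 21 WT members (19.3%) and 21 cKO members (15.2%). Exactly 3 UMIs, the lowest sum admitted, were held by 18 WT members (16.5%) and by 38 cKO members (27.5%), so that more of the cKO set sat on the threshold.

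Cells just inside and just outside that threshold were compared as a description. With 2 UMIs of the 4 genes, 59 WT cells had 331 CPM of Cnr1, the CB1 cannabinoid receptor of CCK-type interneurons, and the 18 WT cells with exactly 3 UMIs had 406 CPM. In cKO the same step went from 185 CPM in 67 cells to 363 CPM in 38 cells. Nr2f2 was at 170 and 150 CPM on either side in WT and at 313 and 444 CPM in cKO. Cxcl14, a chemokine of CGE-derived cells that the rule did not read, was at 61.0 and 53.0 CPM in WT and at 46.3 and 103 CPM in cKO. Above the threshold, with 4 or more UMIs, Cxcl14 stood at 600 CPM in 91 WT cells and at 217 CPM in 100 cKO cells. Meis2, a homeobox gene of olfactory bulb and striatal lineages, went the other way, from 1191 CPM at 2 UMIs to 671 CPM at 3 and 259 CPM at 4 or more in WT, and from 449 to 211 and 191 CPM in cKO. The cells at 3 UMIs were thus intermediate in value for Meis2 and Cnr1 in both libraries, but 2 of these steps lay within counting error. For Cnr1 in WT the intervals at 2 and 3 UMIs overlapped (270 to 401 and 297 to 542). For Meis2 in cKO those at 3 and at 4 or more did (150 to 289 and 159 to 227). The WT cells with 4 or more UMIs were those with most Cxcl14.

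**Figure D1:**
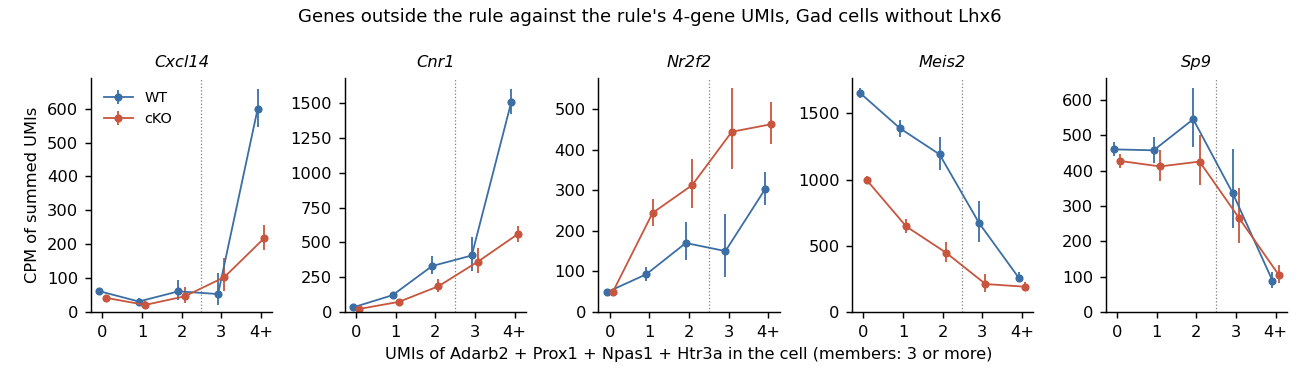
Level of 5 genes the rule did not read (CPM of summed UMIs, linear axes from 0) in GABAergic cells without Lhx6, by the cell's UMIs of Adarb2, Prox1, Npas1 and Htr3a together, for WT and cKO, with exact Poisson 95% intervals and a dotted line at the threshold of the rule. Cnr1 is higher and Meis2 lower with more UMIs of the 4 genes, and WT cells at 3 UMIs stand at 671 CPM of Meis2, between 1191 CPM at 2 and 259 CPM at 4 or more.

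The label was checked with marker genes outside the rule, against the other GABAergic cells of the same library. MGE-type interneurons were taken by at least 2 UMIs of Lhx6 (112 WT and 177 cKO cells) and olfactory bulb-type neuroblasts by at least 3 UMIs of Sp8 and Sp9 together with fewer than 3 of the 4 genes (561 WT and 342 cKO cells). Cxcl14, the marker of the set that chose no cell, reached 526 CPM (478 to 578) in WT members and 193 CPM (165 to 225) in cKO members. It was at 16.4 and 3.19 CPM in MGE-type cells and at 36.4 and 23.6 CPM in the olfactory bulb-type neuroblasts, so the members were higher in both libraries, by 4.96 (4.29 to 5.82) and 5.79 (4.67 to 7.56) on the log2 scale over MGE-type cells. Nr2f2, the COUP-TFII nuclear receptor that marks the caudal eminence, was at 282 CPM (247 to 320) and 459 CPM (415 to 506) in members, at 36.9 and 83.6 CPM in MGE-type cells and at 37.1 and 64.4 CPM in olfactory bulb-type neuroblasts. Cnr1 was at 1363 CPM (1285 to 1444) and 517 CPM (470 to 567) in members, against 172 and 63.1 CPM in MGE-type cells and 45.9 and 23.6 CPM in olfactory bulb-type neuroblasts. In each of these 3 genes the members stood above both other sets in WT and in cKO, with intervals that did not touch. Other genes of CGE fates did not separate the sets as well. Reln was at 175 and 124 CPM in members against 58.5 and 148 CPM in MGE-type cells, and Calb2 at 134 and 95.3 CPM against 115 and 20.4 CPM, a log2 ratio of -0.25 for Reln in cKO and of 0.22 (-0.17 to 0.61) for Calb2 in WT.

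The upstream sequences of Cxcl14 and Adarb2 are shown because Cxcl14 is the marker that the rule left free and Adarb2 is the marker of the rule with a match to a searched motif. They are the 250 bases before the start of each gene, from RefSeq on build GRCm38.p6, read 5′ to 3′ on the gene's own strand, chr13:56296552-56296801 on the minus strand for Cxcl14 and chr13:8202616-8202865 on the plus strand for Adarb2. AGGTCA, searched on both strands, is the half-site of nuclear receptors of the NR2F kind, and TAATTA, which reads the same on both strands, is the core bound by homeodomain factors of the DLX kind. Capitals mark the match.
Cxcl14: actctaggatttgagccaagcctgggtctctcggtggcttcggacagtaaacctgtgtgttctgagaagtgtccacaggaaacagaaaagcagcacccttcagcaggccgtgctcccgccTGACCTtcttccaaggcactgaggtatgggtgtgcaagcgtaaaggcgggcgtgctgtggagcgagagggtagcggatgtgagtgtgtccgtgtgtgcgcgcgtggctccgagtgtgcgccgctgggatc
Adarb2: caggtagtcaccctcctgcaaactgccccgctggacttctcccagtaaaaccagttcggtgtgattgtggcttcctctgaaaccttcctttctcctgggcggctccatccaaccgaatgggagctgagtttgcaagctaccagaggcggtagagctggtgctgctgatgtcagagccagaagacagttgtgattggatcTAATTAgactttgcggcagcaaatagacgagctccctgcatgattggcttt
Cxcl14 holds 1 AGGTCA on the other strand, printed as TGACCT, that begins 130 bases before the start, and no TAATTA. Adarb2 holds 1 TAATTA that begins 51 bases before the start, and no AGGTCA. The windows of Npas1 and both windows of Prox1 hold neither. Of 32851 mouse windows of that length, 4607 (14.0%) hold AGGTCA and 1590 (4.84%) hold TAATTA, so both matches are common ones and are given as a description of the sequence. The marker Htr3a has no entry in the promoter table.

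**Figure D2:**
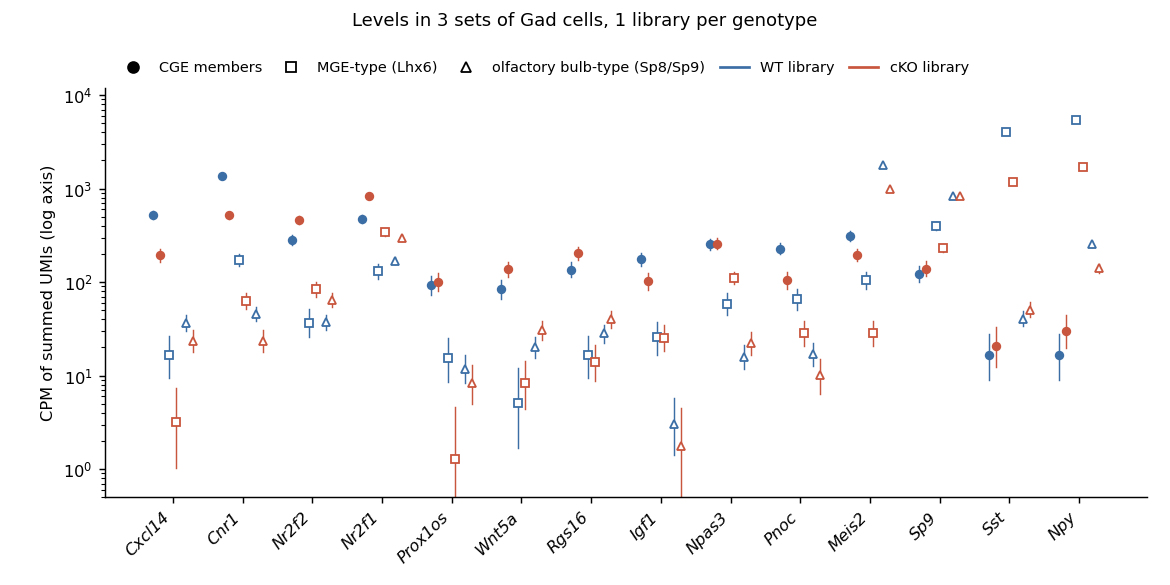
CPM of summed UMIs (log axis) of 14 genes in the members (filled circles), MGE-type interneurons (squares) and olfactory bulb-type neuroblasts (triangles) of WT and cKO, with exact Poisson 95% intervals. Cxcl14, Cnr1 and Nr2f2 are highest in the members of both libraries, and Sst is at 16.6 and 20.9 CPM in the members against 4038 and 1172 CPM in MGE-type cells.

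Genes were also ranked by their ratio between the members and each of the other 2 sets. Those in this and the next 2 paragraphs were named mainly by that ranking, so their direction is part of the choice and checks nothing. Wnt5a, a secreted WNT ligand, was at 84.1 CPM in WT and 138 CPM in cKO members and at 5.13 and 8.29 CPM in MGE-type cells. Rgs16, a regulator of G-protein signalling, was at 136 and 203 CPM against 16.4 and 14.0 CPM. Cck, the cholecystokinin precursor, was at 421 and 181 CPM against 41.1 and 21.7 CPM, and Synpr, a synaptic vesicle protein, at 207 and 152 CPM against 48.2 and 21.7 CPM. Ap1s2, a subunit of a clathrin adaptor, was at 526 and 519 CPM against 84.2 and 92.5 CPM. The ratios of these 5 genes over MGE-type cells were at least 2.09 on the log2 scale in each library. Prox1os, at 92.4 and 101 CPM against 15.4 and 1.28 CPM, overlaps Prox1 by 419 bases on the opposite strand, and whether the counting used strand is not stated, so its reads and those of Prox1 cannot be told apart there. Fabp7, Aldoc, Plpp3 and Bcan also ranked high over MGE-type cells, but these are glial genes and rest on few members, described with the glial markers.

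On the other side stood the genes of the MGE programme. Sst, the somatostatin precursor, was at 16.6 CPM in WT and 20.9 CPM in cKO members, against 4038 and 1172 CPM in MGE-type cells. Npy, neuropeptide Y, was at 16.6 and 30.2 CPM against 5369 and 1708 CPM. Nxph1, neurexophilin, was at 33.2 and 24.4 CPM against 374 and 408 CPM, and Lhx8, an MGE transcription factor, at 1.19 and 2.32 CPM against 78.0 and 48.5 CPM. Free RNA reaches every droplet, and these low levels were not told apart from it.

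Against olfactory bulb-type neuroblasts the members were higher in Igf1, insulin-like growth factor 1, with 175 CPM in WT and 102 CPM in cKO against 3.06 and 1.75 CPM. Npas3, a bHLH-PAS factor, was at 254 and 257 CPM against 16.0 and 22.3 CPM, and Pnoc, the nociceptin precursor, at 229 and 105 CPM against 17.0 and 10.1 CPM. Maf, a factor of cortical interneurons of both eminences, was at 319 and 282 CPM against 39.4 and 31.5 CPM, while MGE-type cells held 499 and 603 CPM. Lower in the members were Meis2, at 314 and 195 CPM against 1792 and 979 CPM, and Zfhx3, a zinc finger homeobox gene, at 9.48 and 2.32 CPM against 168 and 113 CPM. The log2 ratio of Igf1 over olfactory bulb-type neuroblasts, 5.77 in WT and 5.71 in cKO, rests on 9 and 4 UMIs in those neuroblasts.

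Not every member looked like a postmitotic interneuron by its other genes. Markers of radial glia and astrocytes (Slc1a3, Aldoc, Aqp4, Sox9, Hes1, Hes5 and Fabp7) summed to 1588 CPM in WT members and 584 CPM in cKO members, and 3 or more of their UMIs were held by 17 WT members (15.6%) and 8 cKO members (5.80%). Markers of oligodendrocyte precursors (Pdgfra, Olig1, Olig2, Cspg4 and Sox10) summed to 264 and 109 CPM, and the 8 WT and 3 cKO members with 3 or more of those UMIs were all among the former and all held Npas1. In the 17 WT members Prox1 was found in 13 and Npas1 in 12. Markers of microglia summed to 2.37 and 1.16 CPM, those of endothelium to 2.37 and 4.65 CPM, those of erythroid cells to 16.6 and 0 CPM, and those of cycling cells to 24.9 and 17.4 CPM. Cortical projection neuron markers summed to 119 and 97.6 CPM, and the MGE list to 490 and 531 CPM against 11132 and 5015 CPM in MGE-type cells. The olfactory bulb neuroblast list (Sp8, Sp9, Meis2, Tshz1, Pbx3, Etv1, Pax6 and Th) summed to 856 and 695 CPM. In the olfactory bulb-type neuroblasts it summed to 3628 and 2312 CPM. The rule limited Mki67, Top2a and Cenpf of the cycling list, Neurod2 and Neurod6 of the projection neuron list, and Lhx6 of the MGE list. Lhx6 also chose the MGE-type cells, and Sp8 and Sp9 the olfactory bulb-type neuroblasts. For these lists, low sums in the members or high sums in the compared sets were thus partly set in advance. Since the glial markers differ between the libraries, values without those 17 and 8 members are given beside the lists whose counts they change.

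Members of each library were clustered alone, without the genes of the rule, and are described by their leading genes. In WT, 38 members were led by Ccnd2, Slc1a3, Apoe, Fabp7, Dbi and Sp9, a mixture of progenitor, glial and immature neuroblast genes, and had Meis2 at 554 CPM and Cxcl14 at 106 CPM. Slc1a3 and Apoe each had a UMI in 10 of the 38 and Fabp7 in 14, while Ccnd2 was found in 28 and Sp9 in 20. In these 38 the 8 olfactory bulb neuroblast markers summed to 1626 CPM and the 5 CGE markers to 803 CPM. A list of 8 further CGE genes, which shares Sp8 with the olfactory bulb list, summed to 1846 CPM, so the sums do not settle a name for these cells. Another 22 were led by Reln, the extracellular glycoprotein reelin, with Reln at 564 CPM and Nr2f2 at 564 CPM. A further 22 were led by Calb2 (calretinin), Vip and Crh, with Calb2 at 626 CPM and Vip at 448 CPM. A group of 21, with the highest median of 11416 UMIs a cell, was led by Cck, Snhg11 and Cxcl14, with Cck at 993 CPM, Cxcl14 at 1185 CPM and Cnr1 at 2202 CPM. The last 6 cells were led by Olig1 and Pdgfra, with Fabp7 at 5324 CPM and Npas1 at 556 CPM but no UMI of Htr3a.

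In cKO the members fell into 3 groups. The largest, of 63, was led by Ap1s2, Rgs16, Igsf3 and Maf and held the Vip there was, at 50.7 CPM, with Calb2 at 140 CPM. The next, of 42, was led by Fabp7, Ccnd2, Dbi and Sp9, with Meis2 at 349 CPM, Cxcl14 at 23.6 CPM and Cnr1 at 82.5 CPM. Fabp7 had a UMI in only 4 of the 42 and Dbi in 11, while Ccnd2 was found in 20 and Sp9 in 29. In these 42 the olfactory bulb neuroblast markers summed to 1253 CPM, the 5 CGE markers to 707 CPM and the further CGE genes to 1417 CPM. All of the 5 CGE markers but Cxcl14 were again genes of the rule. The smallest, of 33, was led by Reln, Gap43 and Snhg11, with Reln at 355 CPM, Cck at 388 CPM and Cxcl14 at 366 CPM. Olig1 was also among its leading genes, from 3 cells, with oligodendrocyte precursor markers at 344 CPM and radial glia and astrocyte markers at 307 CPM in all. Of the 15 leading genes of each group, the cKO group of 42 shared 8 with the WT group of 38, Sp9 among them, although Cnr1 stood at 611 CPM in that WT group and at 82.5 CPM in the cKO one. Some of the shared genes rest on few cKO cells, with Fabp7 and Slc1a3 each found in 4 of the 42 and Apoe in 9. The cKO group of 63 shared 5 with the WT group led by Calb2 and Vip, namely Ap1s2, Rgs16, Igsf3, Maf and Camk2n1. The cKO group led by Reln shared 5 with the WT group led by Cck, namely Gap43, Snhg11, Fxyd7, Cck and Vsnl1, 4 with the WT group led by Olig1, and 1, Reln, with the WT group led by Reln. The libraries were clustered apart and the sizes of their groups are not compared.

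**Figure D3:**
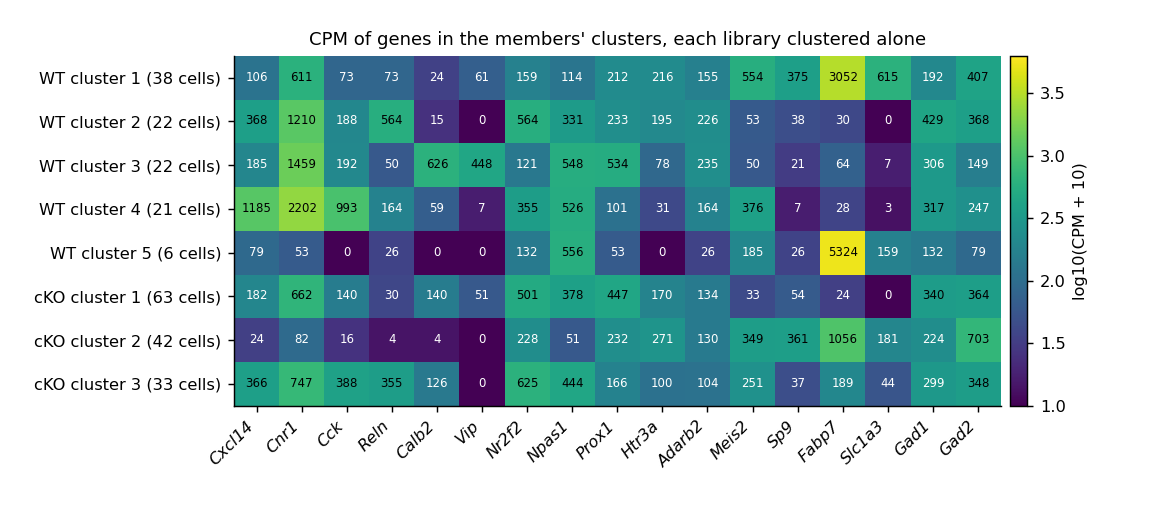
CPM (printed number) of 17 genes in the 5 groups of WT members and the 3 groups of cKO members, each with its number of cells, coloured by log10 of CPM + 10. Vip stands at 448 CPM in 1 WT group of 22 cells and Sp9 at 375 CPM in WT and 361 CPM in cKO in the groups of 38 and 42 cells.

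Most subtype genes had a UMI in a minority of cells. Cxcl14 had a UMI in 38.5% of WT members and 31.2% of cKO members, and in 22.9% and 13.1% after each cell was thinned to 1500 UMIs, which left out 1 cKO member. In glutamatergic cells, which should lack it, the shares were 6.18% and 1.95%, and 1.95% and 0.112% after thinning, at median depths of 8310 and 8798 UMIs. Vip, vasoactive intestinal peptide, had a UMI in 11.0% and 4.35% of members (7.34% and 1.46% thinned), against 0.124% and 0% of glutamatergic cells. Reln had one in 37.6% and 18.1% (17.4% and 8.76% thinned), against 3.83% and 4.05%. The share with Cnr1, 82.6% and 65.9%, lay near the 74.9% and 53.6% of glutamatergic cells, which also express it at this age. After thinning it was 57.8% and 35.8% against 29.3% and 13.8%. Lamp5 and Sncg, later markers of neurogliaform and CCK cells, had 0 UMIs in the members of both libraries, which allows up to 3.56 CPM in WT and 3.49 CPM in cKO. For each gene the Clopper-Pearson upper limit on cells with a UMI was 3.33% in WT and 2.64% in cKO. This does not limit cells that express the gene.

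Some pairs of subtype genes were found in the same cells, and the pairs described were chosen after their values were seen. Of 12 WT members with Vip, 9 also held Calb2 and 8 also held Crh, the corticotropin-releasing hormone of a VIP subclass. Of 6 cKO members with Vip, 2 held Calb2 and 1 held Crh. Of 12 WT members with Ndnf, a neurogliaform gene, 11 held Reln, as did 1 of the 2 in cKO. Vip and Reln met in 3 WT members and in 0 of the 6 cKO members with Vip. Of the members with Cck, 23 of 39 in WT and 18 of 30 in cKO held Cxcl14. These are counts of cells with a UMI in a few cells each, and both genes of a pair are found more readily in deeper cells.

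The members were a larger part of the cKO library. They made up 1.61% (1.32 to 1.94) of kept WT cells and 2.27% (1.91 to 2.68) of kept cKO cells, a difference of 0.659 percentage points (0.171 to 1.16). As a share of the GABAergic cells that passed the limits on Isl1, Neurod2 and Neurod6 and the cell cycle genes, whatever their Lhx6, it was 7.74% and 10.6%, a difference of 2.86 points (0.635 to 5.10). MGE-type cells stood at 1.66% and 2.91% of kept cells, and olfactory bulb-type neuroblasts at 8.29% and 5.63%. With 1 library per genotype this compares 2 dissections, and how much olfactory bulb or ventral tissue each held was not tested.

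Levels in the members were then set side by side between genotypes, calling a gene past the threshold when its CPM differed at least 2-fold among genes with at least 50 UMIs over both libraries. The ratio of summed CPM is given on the log2 scale. Of 5294 such genes 272 (5.14%) were at least 2-fold higher in cKO and 558 (10.5%) at least 2-fold lower. With TMM scaling the split was 452 higher and 418 lower, as TMM moved the median log2 ratio of all genes from -0.00014 to 0.16. The same genes were looked up in all other kept cells, where 86 were at least 2-fold higher and 254 at least 2-fold lower, and 65 and 213 of these were also called in the members.

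Genes of CGE interneuron subtypes stood lower in cKO members. Of 18 listed genes 11 had enough UMIs, and 6 were at least 2-fold lower and 0 higher. Over all genes tested 10.5% were lower and 5.14% higher. The median log2 ratio of the 11 was -1.21, against -0.00014 over all genes tested and -0.67 for the same genes in all other kept cells. Cxcl14 was 526 CPM in WT and 193 CPM in cKO, a log2 ratio of -1.45 (-1.71 to -1.19). Cnr1 was 1363 and 517 CPM (-1.40, -1.56 to -1.24), and Cck 421 and 181 CPM (-1.21, -1.50 to -0.94). The other 3 were Vip at 94.8 and 19.8 CPM (-2.23, -3.11 to -1.50), Crh at 94.8 and 4.65 CPM (-4.19, -6.26 to -2.94) and Ndnf at 102 and 2.32 CPM (-5.14, -8.52 to -3.56). Reln at 175 and 124 CPM and Calb2 at 134 and 95.3 CPM both had a ratio of -0.49, and Id2, an inhibitor of bHLH factors kept by neurogliaform cells, was at 293 and 229 CPM (-0.35). Htr3a, which the rule read, was the one of the 11 above 0, at 0.60. Without the members rich in glial markers, 6 of 11 were again at least 2-fold lower and the median was -1.37. Lower levels in cKO were not confined to the members. Cxcl14, Cnr1 and Cck were also lower in MGE-type cells, and Cxcl14 and Cnr1 in olfactory bulb-type neuroblasts, while Reln was higher in MGE-type cells. The list was chosen with earlier results of these data known, so its counts are a description.

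These values rest on unequal numbers of cells. In WT, 144 of 444 Cxcl14 UMIs came from 1 cell and the top 5 cells gave 56.5%, against 35 UMIs in the top cKO cell and 38.0% from the top 5. The ratio of Cxcl14 was -1.22 without the top cell of each library. Vip came from 12 WT and 6 cKO cells, with 82.5% and 94.1% of its UMIs in the top 5, Crh from 14 and 2 cells and Ndnf from 12 and 2 cells. Of these 6 genes Cnr1 was spread over the most cells, 90 WT and 91 cKO cells, with at most 81 and 31 UMIs in a cell. Under a stricter filter of 1000 genes and 5% mitochondrial UMIs, which kept 24 WT and 33 cKO members, Cxcl14 (-0.58), Cnr1 (-0.89) and Cck (-0.52) were no longer past 2-fold, as Cck was not (-0.84) when cells with 2 or more UMIs of Meis2, Tshz1 and Pbx3 were left out, and Ndnf had 0 UMIs in either library.

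**Figure D4:**
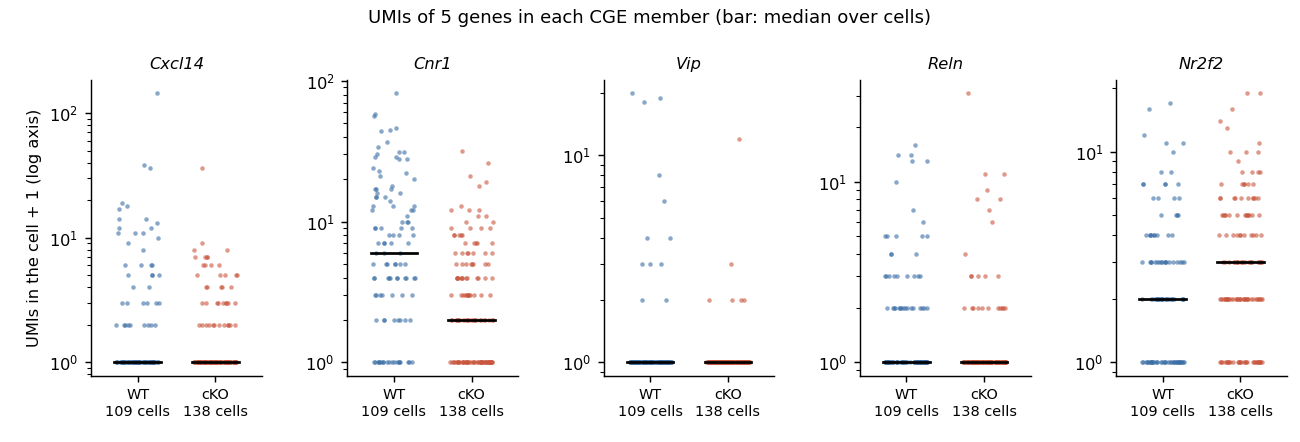
UMIs plus 1 (log axis) of Cxcl14, Cnr1, Vip, Reln and Nr2f2 in every member (points) of WT and cKO, with the median over cells as a bar. The top WT cell holds 144 UMIs of Cxcl14, the top cKO cell 35, and Cnr1 is found in 90 of 109 WT and 91 of 138 cKO members.

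Of 24 transcription factors of the ventral lineage listed, 21 had enough UMIs. Of these 1 was at least 2-fold higher and 2 were at least 2-fold lower, near the shares of 5.14% and 10.5% over all genes tested. Intervals lay above 0 for 9 genes and below 0 for 5, where over all genes tested 21.8% lay above and 24.6% below. Among them were Prox1 (0.40) and Npas1 (-0.33), which the rule read. The median was 0.22, against -0.19 for the same genes in all other kept cells. Nr2f1 was at 479 CPM in WT and 832 CPM in cKO (0.80, 0.62 to 0.98) and Nr2f2 at 282 and 459 CPM (0.70, 0.47 to 0.94). Both were also higher in cKO in MGE-type cells, by 1.39 and 1.16, and in all other kept cells, by 0.66 and 0.43. Dlx2, which specifies GABAergic neurons, was at 326 and 586 CPM (0.84, 0.63 to 1.06). Dlx1 was at 430 and 563 CPM (0.39, 0.19 to 0.59) and Dlx5 at 130 and 193 CPM (0.56, 0.21 to 0.93). In all other kept cells the ratios of Dlx2, Dlx1 and Dlx5 were -0.01, -0.19 and -0.33. In MGE-type cells Dlx2 (0.73, 0.53 to 0.94) and Dlx1 (0.38, 0.15 to 0.62) were also higher in cKO. Dlx5 was not (-0.07, -0.39 to 0.26). In olfactory bulb-type neuroblasts Dlx2, Dlx1 and Dlx5 were at 0.05, -0.07 and -0.11.

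The 2 factors at least 2-fold lower were Sp8, at 98.4 and 44.1 CPM (-1.15, -1.75 to -0.59), and Sox6, an MGE and oligodendrocyte lineage factor, at 49.8 and 19.8 CPM (-1.31). Sp8 was as low in all other kept cells (-1.19) and was no longer past 2-fold with TMM scaling (-0.98), with 2 UMIs of the 4 genes (-0.83) or without cells with 2 or more UMIs of Meis2, Tshz1 and Pbx3 (-0.81). Sox6 was at -0.56 (-1.92 to 0.73) without the members rich in glial markers.

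Of 15 genes of neuronal maturation tested, 1 was at least 2-fold higher and 2 at least 2-fold lower, near the shares of 5.14% and 10.5% over all genes. Their median was -0.38, against 0.02 in all other kept cells. Sox4 and Sox11, factors of newly made neurons, were higher in cKO, at 1627 and 3284 CPM (1.01, 0.92 to 1.11) and at 1807 and 2844 CPM (0.65). Syt1, the vesicle calcium sensor, was at 230 and 81.3 CPM (-1.49, -1.91 to -1.10) and Cntnap2, an axonal adhesion protein, at 80.6 and 31.4 CPM (-1.35; -0.94 without a filter on barcodes and -0.99 with thinned cells). Stmn2, a tubulin regulator of growing axons, was at 2325 and 1371 CPM (-0.76, -0.87 to -0.66), against -0.12 in all other kept cells and -0.10 in MGE-type cells. Gap43, a growth cone protein, was at 564 and 365 CPM (-0.63) against 0.01 in all other kept cells, and Tubb3 at 2314 and 1680 CPM (-0.46) against 0.15. In all other kept cells Sox4, Sox11 and Syt1 were at 0.72, 0.42 and -1.03. In olfactory bulb-type neuroblasts these 3 genes were at 0.59, 0.28 and -1.31, and in MGE-type cells at 0.28, -0.01 and -0.92. Stmn2 (-0.93) and Tubb3 (-0.51) were also lower in cKO in the neuroblasts, while Gap43 was higher (0.40). In MGE-type cells Tubb3 was at -0.11 and Gap43 at -0.39. Whether any change in this list is particular to the members was not tested. Without the members rich in glial markers Sox4 was at 0.95, so that 0 genes of the list were at least 2-fold higher, and Syt1 was at -0.91 when cells with 2 or more UMIs of Meis2, Tshz1 and Pbx3 were left out. More cKO members sat at the threshold of the rule, and the part of that in these values was not tested.

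Of 8 genes of GABA synthesis, transport and chloride handling, 6 were tested and 0 were past 2-fold, but 2 of the 6 were read by the rule. These were the synthetic enzymes Gad1, at 288 and 293 CPM, and Gad2, at 289 and 459 CPM (0.67, 0.43 to 0.90), given as a description. Slc32a1, the vesicular GABA transporter, was at 275 and 171 CPM (-0.69). Of 19 genes of migration and guidance 13 were tested and 0 were past 2-fold, with a median of -0.06. Erbb4, the neuregulin receptor of migrating interneurons, was lowest at 162 and 88.3 CPM (-0.87, -1.30 to -0.46), and Cxcr4, the CXCL12 receptor, highest at 23.7 and 41.8 CPM (0.80, -0.01 to 1.69).

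Of 14 glutamate receptor genes 6 were tested, with a median of -0.68 against -0.43 in all other kept cells. Of the 6, 2 were at least 2-fold lower, where over all genes tested 10.5% were. These were Grm5, the metabotropic receptor mGluR5, at 68.7 and 24.4 CPM (-1.47, -2.29 to -0.75), and Gria1, the AMPA subunit GluA1, at 61.6 and 27.9 CPM (-1.13, -1.91 to -0.42), which stood at 0.46 under the stricter filter, where Grm5 was at -0.97. Of 13 GABA receptor genes 6 were tested and 0 were past 2-fold, with a median of -0.30. Gabbr1, a subunit of the metabotropic GABA-B receptor, was at 286 and 196 CPM (-0.54). Of 12 serotonin, acetylcholine and cannabinoid receptor genes only Cnr1 and Htr3a had enough UMIs.

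Few genes of STING signalling or of cell death could be measured in so few cells. Of 10 genes of the STING pathway 1 was tested, Nfkbia, the NF-κB inhibitor, at 36.7 CPM in WT and 67.4 CPM in cKO (0.86, 0.22 to 1.55), against 0.08 in all other kept cells. Without the members rich in glial markers it was at 0.51 (-0.19 to 1.25). Alx4 and Tnf had 0 UMIs in both sets. Of 14 genes of survival and death 7 were tested and 0 were past 2-fold, with a median of 0.18, and Bcl2, which protects from apoptosis, was at 42.7 and 73.2 CPM (0.77, 0.17 to 1.41). Without the members rich in glial markers Bcl2 was at 1.10 (0.39 to 1.88), so that 1 of the 7 was past 2-fold. Of 15 immediate early and stress genes 7 were tested and 1 was at least 2-fold lower, where over all genes tested 10.5% were. It was Btg2, at 51.0 and 18.6 CPM (-1.43), and at 0.38 with the rule read on thinned cells. The median of the 7 was -0.68 against -0.25 in all other kept cells. Fos was at 230 and 136 CPM (-0.76). Without the members rich in glial markers 6 of the list were tested, 0 were past 2-fold, the median was -0.28 and Fos was at -0.27 (-0.72 to 0.17).

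Ranked over all genes but mitochondrial, haemoglobin and sex-linked ones, the 10 highest ratios in cKO members were led by Gm8730, a processed pseudogene, at 14.2 CPM in WT and 653 CPM in cKO (5.46), and by Gm26917, a long noncoding RNA, at 15.4 and 159 CPM (3.32). A processed pseudogene can share reads with its parent gene, so its value is uncertain. Trit1, a tRNA-modifying enzyme, was at 13.0 and 80.2 CPM (2.57), Zfp281, a zinc finger factor, at 48.6 and 163 CPM (1.73) and Med4, a Mediator subunit, at 30.8 and 109 CPM (1.81). The rest were Lrp12 (2.11), Crebrf (1.98), Zfp787 (1.95), Gigyf1 (1.84) and Gatsl2 (1.78). All 10 were also higher in cKO in all other kept cells, at 0.54 to 4.60.

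Among the 10 lowest were the subtype genes Ndnf and Crh and the neuropeptide gene Nts. Nts was at 175 CPM in WT and 4.65 CPM in cKO, but 145 of 148 WT UMIs were in 1 cell and the ratio was -0.03 without the top cell of each library. Dynll1, a dynein light chain, was at 1018 and 116 CPM (-3.13), Fam136a, a mitochondrial protein, at 74.7 and 2.32 CPM (-4.70) and Cend1, a neuronal cell cycle exit protein, at 103 and 11.6 CPM (-3.09). In all other kept cells these 3 were at -2.06, -3.61 and -1.22. Pcp4, a calmodulin-binding peptide, was at 145 and 16.3 CPM (-3.11), but near 0 (0.0021) among members with at least 5 UMIs of the 4 genes. Also among them were Hopx (-4.50) and Sfrp2 (-3.82), genes of progenitors and astrocytes.

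The genes whose ratio in the members lay farthest from that in all other kept cells included Opcml, a neuronal adhesion molecule, at 111 and 23.2 CPM (-2.23) in members against 0.21 in all other kept cells. In MGE-type cells Opcml was also lower in cKO, at 132 and 49.7 CPM (-1.41, -1.84 to -0.995). Lmo1, a LIM-only transcriptional cofactor, was at 108 and 18.6 CPM (-2.50) against -0.09 in all other kept cells. Above the rest of the library were Sdk2, a synaptic adhesion protein, at 51.0 and 127 CPM (1.30) against -0.58, Hdac7, a histone deacetylase, at 29.6 and 70.9 CPM (1.24) against -0.18, and Nptx2, a pentraxin of excitatory synapses, at 14.2 and 47.6 CPM (1.70) against 0.30. With the rule read on thinned cells Nptx2 was at 0.0040. Sdk2 was at 0.77 when 2 UMIs of the 4 genes sufficed, and Hdac7 was at 0.84 without a filter on barcodes. Some subtype genes also had different ratios in MGE-type cells, where Calb2 was at -2.48 against -0.49 in members and Reln at 1.33 against -0.49, while Cxcl14 (-2.27) and Cnr1 (-1.45) were lower in cKO there too. These differences were not tested, since each genotype is 1 library.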

How the data were processed

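Telencephalic cells of WT and STINGf/f;Nestin-Cre pups were profiled by droplet 3′ single-cell RNA sequencing. The deposited values of each library are counts: whole UMIs per gene and barcode, which the authors made with STAR, Cell Ranger 2 and Seurat against mm9, as named in the submitters' processing notes. The files hold no coordinates. Use of strand in the counting is not given in the sources used here. A combined matrix, normalized tables and the authors' marker table were not used. Columns without a matching sample numbered 0.

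Barcodes with at least 500 genes and at most 10% mitochondrial UMIs were kept (10715 and 9198 barcodes before, with 69554624 and 67448785 UMIs). The members and gene lists were chosen with earlier results of these data known. UMIs were summed over members per library and divided by all their UMIs (CPM). CPM have exact Poisson intervals, ratios conditional binomial intervals and shares Clopper-Pearson intervals, at 95% and for counting error only (scipy 1.17.1). A fitted ratio adds 0.5 UMI to each sum. A count of 0 allows up to 3 UMIs per library. Genes needed 50 UMIs over both libraries. Calls and shares were tested on simulated data with independent counts and no spread between cells or libraries. That simulation does not cover genes whose UMIs come from few cells. Shares of cells with a UMI were thinned to 1500 UMIs a cell. An alternative read the rule on cells thinned to 3000 UMIs and left out cells with fewer. It picked 48 WT and 75 cKO members, whose levels were taken from all their UMIs. Glutamatergic cells held 3 or more UMIs of Neurod2 and Neurod6.

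Members of each library were clustered with scanpy 1.11.5 (1000 variable genes, 15 components, 15 neighbours, Leiden resolution 0.5). Doublets were scored with Scrublet and kept, since it marked 165 WT (2.44%) and 0 cKO cells. TMM factors came from edgeR 4.0.16, used for scaling alone. Genes were named by list, by the 10 highest and 10 lowest ratios of CPM + 10 with intervals that did not overlap, by ratio over the other 2 GABAergic sets, and by distance from the ratio in all other kept cells. Gene types and overlaps came from GENCODE M21, which matched 27645 of 27998 gene identifiers, and upstream sequences from RefSeq on GRCm38.p6, which held 4 of the 5 markers. A few genes that these rules name are not reported here.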

Additional observations from a re-analysis of the deposited data

Results flagged for a closer look

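In 15 of 142 genes looked at, the members and all other kept cells lay on opposite sides of equal levels between genotypes, with counting intervals clear of 0 on both sides, and in 8 of the 15 the ratios differed by at least 1 on the log2 scale. With 1 library per genotype the difference itself was not tested. For those 8 the difference of log2 ratios, members minus all other kept cells, was -5.96 for Nts, which rests on 1 WT cell, -2.44 for Opcml, -1.37 for the GABA-A subunit Gabra5 (41.5 and 23.2 CPM in members), -1.15 for Islr2, an axon guidance protein (161 and 86.0 CPM), and -1.02 for Reln. It was 1.30 for Tshz1, a zinc finger factor of olfactory bulb and striatal neurons (79.4 and 167 CPM), 1.42 for Hdac7 and 1.88 for Sdk2. In MGE-type cells the ratio of Opcml was also below 0, at -1.41 (-1.84 to -0.995). There Nts was at 0.59, Gabra5 at 0.42, Islr2 at -0.78 and Reln at 1.33. Tshz1 was at 0.12, Hdac7 at -0.78 and Sdk2 at 0.50 in the same cells. All other kept cells are a mixture of cell types whose shares differ between the libraries, and the part of that in these values was not tested.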

How the results depend on the processing

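The difference in the members' share, 0.659 points, stayed positive in all 8 alternatives: 0.352 without a filter on barcodes, 1.02 with 1000 genes and 5% mitochondrial UMIs, 0.679 without Scrublet's doublets, 0.889 and 0.286 with 2 or 5 UMIs of the 4 genes, 0.411 with at most 1 UMI of Meis2, Tshz1 and Pbx3, 0.598 with cells thinned to 3000 UMIs and 0.778 without the members rich in glial markers, an alternative added after seeing the data. Its counting interval included 0 under the stricter filter (-0.0086 to 2.13) and with 5 UMIs of the 4 genes (-0.081 to 0.662). The counts of genes at least 2-fold higher and lower, 272 and 558, became 109 and 115 under the stricter barcode filter (1483 genes tested), 176 and 291 with 5 UMIs of the 4 genes, 127 and 173 with the Meis2, Tshz1 and Pbx3 limit, 483 and 1192 with a minimum of 20 UMIs, 43 and 68 with 200, and 1688 and 3804 with 1, where fewer or more genes were tested. TMM gave 452 higher, and reading the rule on thinned cells gave 234 lower. Some values past 2-fold changed sign. With the rule read on thinned cells these were Btg2 (0.38), Hes5 (0.49), Nts (1.33) and Slc1a3 (0.11). Under the stricter filter they were Gria1 (0.46), Ndnf and Nts (0.25 in both, with 0 UMIs in either library, from the 0.5 UMI added and the library totals alone). With 5 UMIs of the 4 genes they were Nts (0.49), Pcp4 (0.0021) and Slc1a3 (0.15). The others were Nts (0.53) with the Meis2 limit and Hes5 (1.03) without the members rich in glial markers. Among ratios over MGE-type cells, with both sets picked on thinned cells, those that changed sign were Fabp7 (-2.01), Aldoc (-4.45), Plpp3 (-2.79) and Bcan (-0.98) in cKO and Aldoc (-0.35) in WT. Of 87 named genes under 2-fold, 40 changed sign under an alternative. The largest was 1.90 for Sox9 with the rule read on thinned cells (3 and 15 UMIs), and Aldoc reached 0.94 with 5 UMIs of the 4 genes. Apart from settings that test other genes or cells, the cause was not tested. No paired analysis was possible because each genotype has 1 library. At a median of 5108.5 to 6388 UMIs a cell and 247 members, genes under 50 UMIs were not compared.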
